A study of Mus musculus with 4 samples.

Results

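RNA polymerase II (Pol II) peaks around the 3′ ends of long genes were examined in mouse brain endothelial cells (ECs). A peak was a member when its summit lay from 1000 bp before to 5000 bp past the 3′ end of a protein-coding gene over 20 kb, by strand, and more than 3000 bp from every annotated transcription start site (TSS). The genome was mm10 with the GENCODE M21 basic annotation. These rules gave 8239 members of 388251 peaks on placed chromosomes, split into 1749, 810, 576 and 5104 over the 4 libraries. These libraries are written WT Cre 1 and 2 (old WT Cre replicates) and K4KO 1 and 2 (young EC-K4KO replicates), and any series of 4 values follows that order. The annotation held 21938 protein-coding genes, of which 10159 exceeded 20 kb. A zone with at least 1 base far enough from a TSS remained for 9919 of them, and 240 had none.

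The comparison addresses how Pol II occupancy differed between aged mice and young mice whose ECs lack KLF4, a zinc-finger transcription factor. Each group had 2 libraries, and each library was made from 200000 flow-sorted ECs. Old WT Cre mice (20 to 23 mo) carried the endothelial Cdh5 Cre alone, and young EC-K4KO mice (4 to 6 mo) carried CDH5-CreERT2 with floxed Klf4. Mice received tamoxifen at 8 wk of age to induce Cre, and by the study's account controls were treated the same way. The Cdh5 promoter acts in ECs of all organs, and no source used here says how many animals made up a library. Genotype and age cannot be told apart in this design.

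After a long gene is transcribed, Pol II passes the polyadenylation signal, where the nascent RNA is cleaved and given its poly(A) tail. Pol II continues past the cleavage site while the exonuclease XRN2 degrades the remaining RNA from its free end, and it pauses and leaves the template at varied distances downstream. In many mammalian cells Pol II therefore accumulates past the 3′ ends of active genes, in broad zones rather than at 1 base. A caller of narrow peaks such as MACS2 reports local maxima, and the chromatin here was fragmented with micrococcal nuclease, which cuts DNA between nucleosomes.

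Strong members present in all 4 libraries are shown first, since their sequence bears on the results given later. Each line gives 150 bases around the summit in WT Cre 1, read from the GRCm38 assembly on the strand of the gene, and capitals mark bases under a peak in all 4 libraries.
Man1a (chr10:53900108-53900257, minus strand): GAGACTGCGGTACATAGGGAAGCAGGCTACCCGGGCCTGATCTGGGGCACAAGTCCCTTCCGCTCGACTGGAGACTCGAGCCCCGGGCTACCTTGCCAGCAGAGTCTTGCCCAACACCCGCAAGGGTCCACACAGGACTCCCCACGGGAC
Rasal2 (chr1:157134728-157134877, minus strand): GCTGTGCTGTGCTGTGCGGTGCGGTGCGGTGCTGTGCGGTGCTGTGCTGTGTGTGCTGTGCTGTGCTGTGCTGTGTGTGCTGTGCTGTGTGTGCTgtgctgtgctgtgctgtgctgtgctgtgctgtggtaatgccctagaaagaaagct
Gm28539 (chr16:18958417-18958566, plus strand): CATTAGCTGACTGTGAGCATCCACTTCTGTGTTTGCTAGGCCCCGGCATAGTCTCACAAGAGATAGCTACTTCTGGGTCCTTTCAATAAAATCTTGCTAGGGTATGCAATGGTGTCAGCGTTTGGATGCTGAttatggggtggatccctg
Gm9732 (chr14:43308207-43308356, plus strand): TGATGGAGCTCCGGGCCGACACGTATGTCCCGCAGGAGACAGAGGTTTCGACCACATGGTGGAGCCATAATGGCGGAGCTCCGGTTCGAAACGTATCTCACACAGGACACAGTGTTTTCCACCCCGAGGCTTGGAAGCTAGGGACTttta
Drg1 (chr11:3185367-3185516, minus strand): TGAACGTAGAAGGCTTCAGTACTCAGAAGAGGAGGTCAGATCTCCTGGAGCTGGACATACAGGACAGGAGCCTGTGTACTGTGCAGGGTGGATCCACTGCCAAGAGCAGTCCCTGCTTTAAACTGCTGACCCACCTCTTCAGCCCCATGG
The window past Rasal2 consisted largely of a short repeat of the form TGTGC. The Gm28539 window holds AATAAA, the sequence of the polyadenylation signal. This window is fully repeat-masked and its summit lies in an intron of another gene. AATAAA occurs in 20.1% of all zone windows, searched on both strands, and a function here was not tested. Of the 10 named genes with members in all 4 libraries, 3 have AATAAA in their last 30 bases on the gene strand, and these ends follow for that reason, with the signal in capitals.
Lars2 (chr9:123462637-123462666, plus strand): cattgaattAATAAAtgttgtgaaccataa
Man1a (chr10:53904785-53904814, minus strand): attgtgAATAAAgtcttttaatatacctcc
Gm9732 (chr14:43305982-43306011, plus strand): ttcaggaAATAAAaacatattctaaaagaa
AATAAA or its variant ATTAAA lay in the last 50 bases of 77.3% of the 9919 genes, searched on the gene strand. The share was 78.8, 77.0, 77.4 and 77.5% among genes with a member over the 4 libraries, and 77.1, 77.4, 77.3 and 77.2% among genes without. Genes with and without a member thus differed by less than 2 percentage points in every library.

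List length did not follow depth, and 1 library stands apart. The peak caller counted 65734178, 27455452, 35227929 and 22705175 fragments for lists of 78851, 39674, 35638 and 235591 peaks. Young EC-K4KO replicate 2 had the fewest fragments and the most peaks. It held 5104 of the 8239 members, so values are given per library throughout. Promoter peaks, within 1500 bp of a TSS, were found at 25.6, 24.5, 10.6 and 67.5% of all protein-coding genes. Endothelial markers had a promoter peak at 6, 6, 1 and 13 of 20 genes (30, 30, 5 and 65%), near those backgrounds. Barrier genes of brain ECs had one at 8, 12, 5 and 17 of 20 (40, 60, 25 and 85%), above the background in each library. The 24 genes for cleavage, polyadenylation and termination were above it in each library too (37.5, 33.3, 16.7 and 100%). Stress and senescence genes had one at 9, 5, 2 and 18 of 20 (45, 25, 10 and 90%), below the background in K4KO 1. Astrocyte markers had one at 7, 4, 2 and 7 of 12 genes (58.3, 33.3, 16.7 and 58.3%), microglial markers at 4, 1, 0 and 7 of 12, and mural cell markers at 4, 1, 2 and 9 of 12. Oligodendrocyte markers had one at 2, 3, 1 and 11 of 12 and neuronal markers at 4, 3, 1 and 7 of 12. Differences between these lists were not tested. The part of other cells in the members was not tested.

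Members made up about 1 peak in 50 in each library. The share of placed peaks was 2.23% (95% exact binomial interval 2.13 to 2.33%) in WT Cre 1, 2.05% (1.92 to 2.2%) in WT Cre 2, 1.63% (1.5 to 1.77%) in K4KO 1 and 2.17% (2.11 to 2.23%) in K4KO 2. These and later intervals cover counting error only. The old WT Cre mean was 2.14 ± 0.123% and the young EC-K4KO mean 1.9 ± 0.38% (SD, n = 2 each), a difference of 0.240 percentage points (two-sided exact permutation of the 4 libraries, p = 0.667, where 0.33 is the smallest p the design allows). The low value of K4KO 1 set the spread of its group.

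Against uniform placement, members were in excess in 3 libraries and not in K4KO 1. The zones covered 47.4 Mb, or 2.03% of the 2332 Mb of ungapped sequence over 3000 bp from a TSS. Placing the distal peaks of each chromosome evenly over such sequence would put 1374, 641, 621 and 4054 summits in the zones, where 1749, 810, 576 and 5104 were found. The ratio was 1.27 (95% interval 1.21 to 1.33) in WT Cre 1, 1.26 (1.18 to 1.35) in WT Cre 2, 0.927 (0.854 to 1.01) in K4KO 1 and 1.26 (1.23 to 1.29) in K4KO 2. The mean log2 ratio was 0.23 ± 0.22 (SD, n = 4) and positive in 3 of 4 libraries (two-sided exact sign-flip permutation test, p = 0.25, where 0.13 is the smallest p 4 libraries allow). On this scale old WT Cre exceeded young EC-K4KO by 0.23 (0.34 ± 0.0065 against 0.11 ± 0.31, SD, n = 2 each; exact permutation test, p = 0.33). This difference rested on K4KO 1: without that library it was 0.011, and without K4KO 2 it was 0.45. Outside repeat-masked sequence, an alternative chosen after seeing the data, the ratio was 1.02 in K4KO 1 and 1.31 to 1.63 in the other libraries. With all peaks placed over all ungapped bases, it was 1.19, 1.10, 0.878 and 1.17, a mean log2 ratio of 0.10 (exact sign-flip permutation test, p = 0.375).

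The surroundings of the same genes held peaks at least as densely as the zone. A gene body window 11000 to 5000 bp before the 3′ end and a downstream window 10000 to 16000 bp past it were counted under the same rules. Summit density in the zone was 36.9, 17.2, 12.2 and 107 per Mb in the 4 libraries. It was 38.5, 18.1, 12.3 and 113 per Mb in the body window and 39.5, 17.4, 13.6 and 113 per Mb downstream. The zone was thus the least dense of the 3 windows in every library. Zone over body was 0.960 (0.901 to 1.02), 0.9503 (0.866 to 1.04), 0.989 (0.884 to 1.11) and 0.952 (0.917 to 0.988), and the interval excluded 1 in K4KO 2 alone. Zone over downstream was 0.935 (0.876 to 0.998), 0.985 (0.894 to 1.08), 0.895 (0.800 to 1.00) and 0.947 (0.912 to 0.984). The mean log2 ratios were -0.055 and -0.089, each negative in 4 of 4 libraries (exact sign-flip permutation test, p = 0.13 for each). The sign held in every library under part of the alternatives only: with q of at most 1e-05 or a fold enrichment of at least 4, at least 1 library had a zone denser than the body window. The groups differed by -0.023 and 0.059 in these ratios (exact permutation test, p = 0.667 for each).

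**Figure D1:**
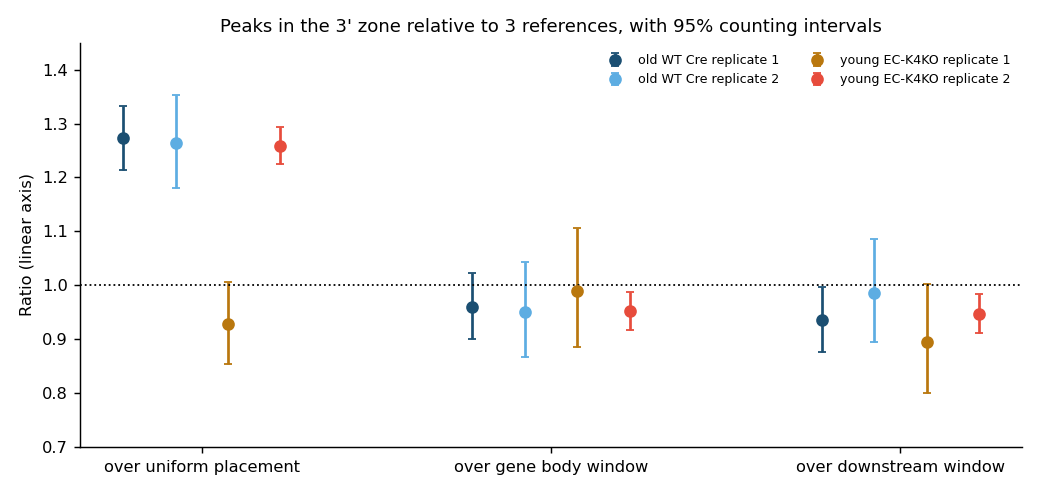
Members relative to 3 references in each library. The vertical axis is a linear ratio, points are single libraries and bars are 95% counting intervals: over uniform placement 3 libraries sit at 1.26 to 1.27 and K4KO 1 at 0.927, while over the body and downstream windows every point lies below 1.

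Within the zone, density was highest before the gene end and lower from its last 500 bp onward, though narrowly in K4KO 1. The densest of the 12 zone bins of 500 bp was the first, 1000 to 501 bp before the end, in all 4 libraries, at 48.1, 22.7, 15.1 and 145 summits per Mb. The least dense bin held 31.3, 14.0, 9.83 and 95.5 per Mb. It was the last 500 bp before the end in WT Cre 1 and K4KO 1, and a bin past the end in the others. The dense first bin belonged to a wider stretch, which was set at 4000 to 501 bp before the end after the profile was seen. That stretch held 45.3, 22.9, 14.2 and 138 summits per Mb in the 4 libraries. It was denser than the 5000 bp past the end by 1.25-fold, 1.40-fold, 1.17-fold and 1.33-fold. It was also denser than the body window by 1.18-, 1.27-, 1.15- and 1.22-fold. Since these densities set the limits of the stretch, its ratios are a description and were given no test. The last 500 bp of the gene held 0.691, 0.858, 0.692 and 0.759 times the density of the stretch before it.

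**Figure D2:**
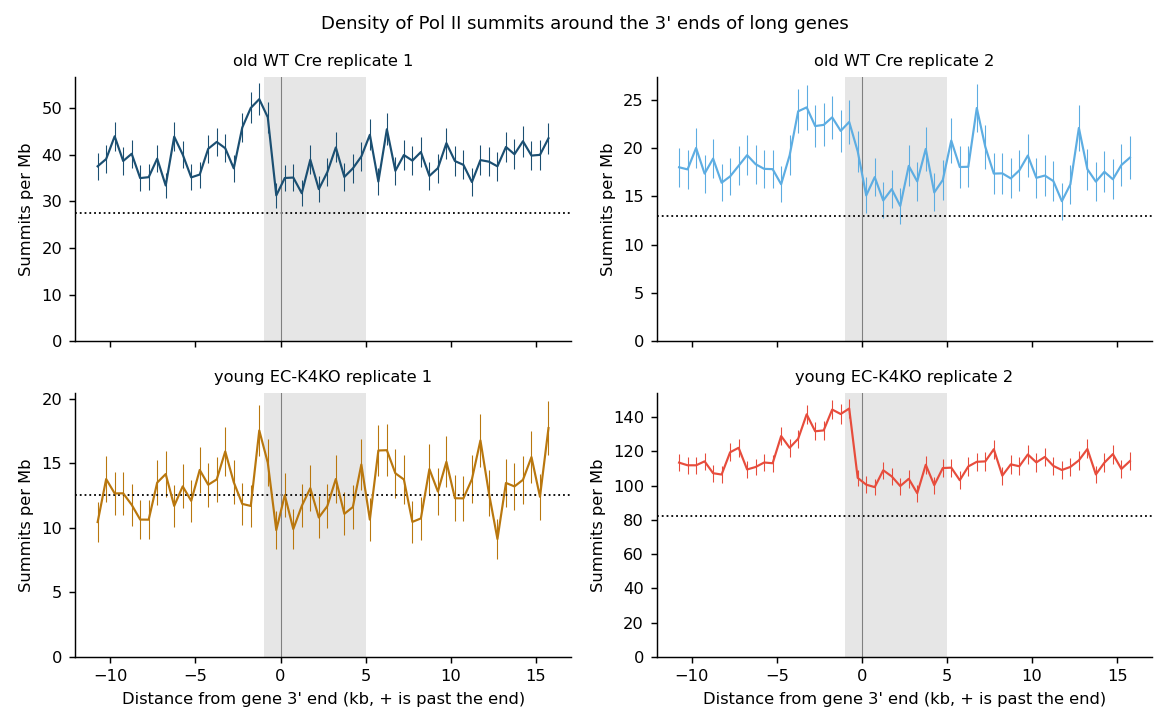
Summit density per Mb in 500-bp bins against distance from the gene 3′ end in kb, 1 panel per library with its own axis from 0. Grey marks the zone, the dotted line the mean density of distal peaks, and error bars are the square root of the count; in WT Cre 1 and K4KO 2 density is highest in the few kb before the end and lower from the last 500 bp onward. In WT Cre 2 a bin past the end (24.1 per Mb) comes close to the highest bin before it (24.2 per Mb), and the highest bin of K4KO 1 (17.7 per Mb) lies 15500 to 15999 bp past the end.

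The higher density before the end was most marked at coding exons. Between 4000 and 501 bp before the end, coding bases of the gene held 121, 79.4, 39.0 and 398 summits per Mb in the 4 libraries. UTR bases held 43.0, 19.0, 13.5 and 124 per Mb, and the other bases, nearly all intron, held 35.4, 16.7, 10.9 and 107 per Mb. Coding density was thus 3.40-, 4.74-, 3.57- and 3.73-fold that of intron (higher in 4 of 4 libraries, with no test since the stretch was chosen on its density). UTR density exceeded intron density by 1.21-, 1.14-, 1.23- and 1.16-fold. Intron of this stretch held 0.975, 1.03, 0.903 and 1.03 times the density of the bases past the end. Against intron of the body window it held 1.01, 1.16, 0.957 and 1.09 times the density. Coding bases were denser in the body window as well, at 91.2, 74.97, 26.6 and 352 per Mb against 35.0, 14.4, 11.4 and 97.7 per Mb in intron.

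Base content differed between these classes. Coding bases of the stretch had a GC content of 51.6%, UTR bases 43.4% and intron 44.1%. Along the profile, coding bases made up 9.08% of the 500-bp bin that starts 2000 bp before the end and 5.25% of the last 500 bp, where UTR made up 82.8%. The GC content was 44.6% in the first of these bins, 41.3% in the last 500 bp and 44.1% in the first 500 bp past the end. The part of GC content in the densities was not tested.

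Within the zone, members were found in exons outside the UTR more often than positions were. Non-UTR exons of the gene made up 1.18% of zone positions and held 48 of 1749 members (2.74%), 31 of 810 (3.83%), 19 of 576 (3.30%) and 200 of 5104 (3.92%), a mean log2 ratio of 1.53 ± 0.24 (SD, n = 4; exact sign-flip permutation test, p = 0.13). Exons of another gene past the end made up 5.53% of positions and held 7.43, 10.2, 6.94 and 8.05% of members, above their share in 4 of 4 libraries (mean log2 ratio 0.55; exact sign-flip permutation test, p = 0.13). Introns of another gene past the end made up 13.9% of positions and held 13.7, 13.8, 11.1 and 13.3% of members, below their share in 4 of 4 libraries (mean log2 ratio -0.10; exact sign-flip permutation test, p = 0.13). Most members lay past the end where no gene is annotated, at 59.1, 53.2, 63.2 and 57.4% against 61.4% of positions. UTR exons of the gene held 13.7, 15.6, 11.98 and 13.1% of members against 14.1% of positions, and introns of the gene 3.43, 3.33, 3.47 and 4.15% against 3.91%.

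**Figure D3:**
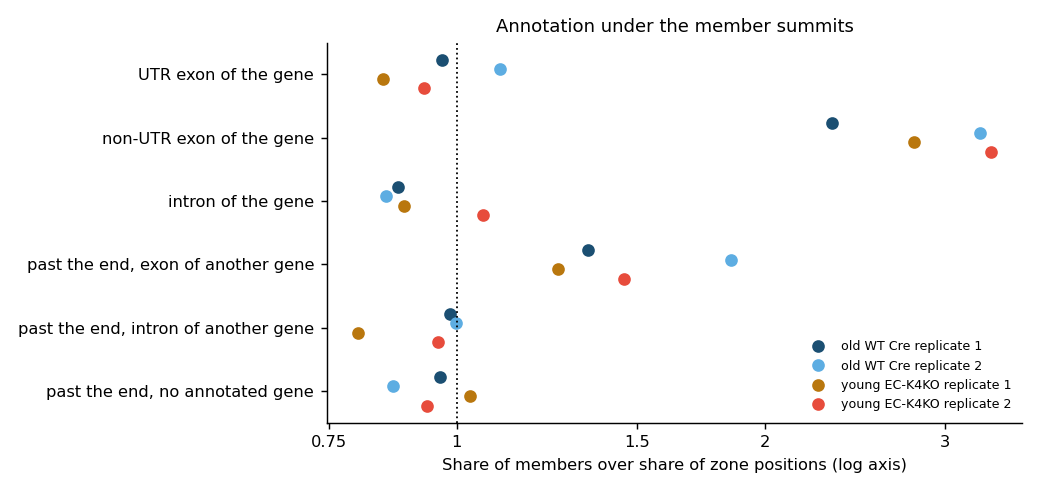
Share of member summits over share of zone positions for each annotation class, on a log axis, with 1 point per library. Non-UTR exons of the gene lie at 2.33 to 3.32 in every library and exons of another gene past the end at 1.26 to 1.85, while introns of another gene past the end lie at 0.802 to 0.997 and the other classes on both sides of 1.

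Members resembled other distal peaks in height and base composition. The median fold enrichment, the ratio of pileup to the local background of the same library, was 3.77, 4.84, 4.14 and 4.68 in members against 3.94, 4.85, 4.17 and 4.79 in other distal peaks. Median pileup was 21, 13, 15 and 14 fragments. GC content of the 150 bases around the summit was 54.5, 56.0, 54.6 and 54.0% in members, 0.052 to 1.06 percentage points above other distal peaks and well above the 43.9% of all zone windows. Repeat-masked bases made up 33.1, 32.7, 31.9 and 21.5% of member windows against 46.6, 54.1, 45.3 and 33.3% in other distal peaks, a mean difference of -15.0 percentage points (4 of 4 libraries lower; exact sign-flip permutation test, p = 0.13). All zone windows held 28.1% such bases. AATAAA, searched on both strands, occurred in 4.63 to 5.90% of member windows and 4.86 to 6.61% of windows at other distal peaks, against 20.1% of zone windows. GGGGAGGGG, a G-rich motif of the kind bound by the factor MAZ near some transcript ends, occurred in 0.800 to 1.60% of member windows, 0.946 to 1.41% of other distal windows and 1.04% of zone windows.

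Genes with a Pol II peak at the promoter had a member slightly more often than genes without one. In WT Cre 1, 18.4% of 3150 genes with a promoter peak had a member (95% exact binomial interval 17.1 to 19.8%), against 16.1% (15.3 to 17.0%) of 6769 genes without, where 16.9% of all 9919 genes had one. In WT Cre 2 the shares were 8.73% (7.77 to 9.77%) of 3173 genes and 8.08% (7.44 to 8.75%) of 6746 genes, against 8.29% of all. In K4KO 1 they were 7.30% (5.97 to 8.83%) of 1342 genes and 5.65% (5.18 to 6.16%) of 8577 genes, against 5.88% of all. In K4KO 2 they were 42.3% (41.2 to 43.4%) of 7691 genes and 37.2% (35.2 to 39.3%) of 2228 genes, against 41.1% of all. The mean difference was 2.42 ± 1.89 percentage points (SD, n = 4), positive in 4 of 4 libraries (exact sign-flip permutation test, p = 0.13). The old WT Cre mean was 1.48 ± 1.17 and the young EC-K4KO mean 3.35 ± 2.41 (SD, n = 2 each; exact permutation test, p = 0.667). Without K4KO 2 the mean difference was 1.54 points. The group difference, old minus young, was -1.87 points, and it was -0.166 without K4KO 2, -3.58 without K4KO 1 and -1.04 without WT Cre 2. With promoter status from the other library of the group, the group difference was 3.16.

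Genes with a promoter peak also had summits more often in the flanking windows. They had a summit in the body window more often by 2.47, 2.55, 3.33 and 9.47 percentage points, and in the downstream window by 0.514, 0.769, 0.670 and 7.27 points. The excess of the zone over the downstream window was 1.80, -0.118, 0.978 and -2.21 points, a mean of 0.112 ± 1.74 (SD, n = 4; positive in 2 of 4 libraries; exact sign-flip permutation test, p = 1.0). With lists of equal length, this excess was 0.917 points (positive in 4 of 4 libraries; exact sign-flip permutation test, p = 0.13), and the difference in the zone itself fell from 2.42 to 1.09 points. The excess over the body window was negative in 4 of 4 libraries, with a mean of -2.04 points (exact sign-flip permutation test, p = 0.13). Genes with a promoter peak were also longer, with a median of 56.9, 58.5, 59.4 and 53.0 kb against 46.7, 46.1, 48.7 and 40.3 kb. When promoter status was taken from the other library of the group, the mean difference in the zone was 0.687 percentage points (exact sign-flip permutation test, p = 0.75).

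**Figure D4:**
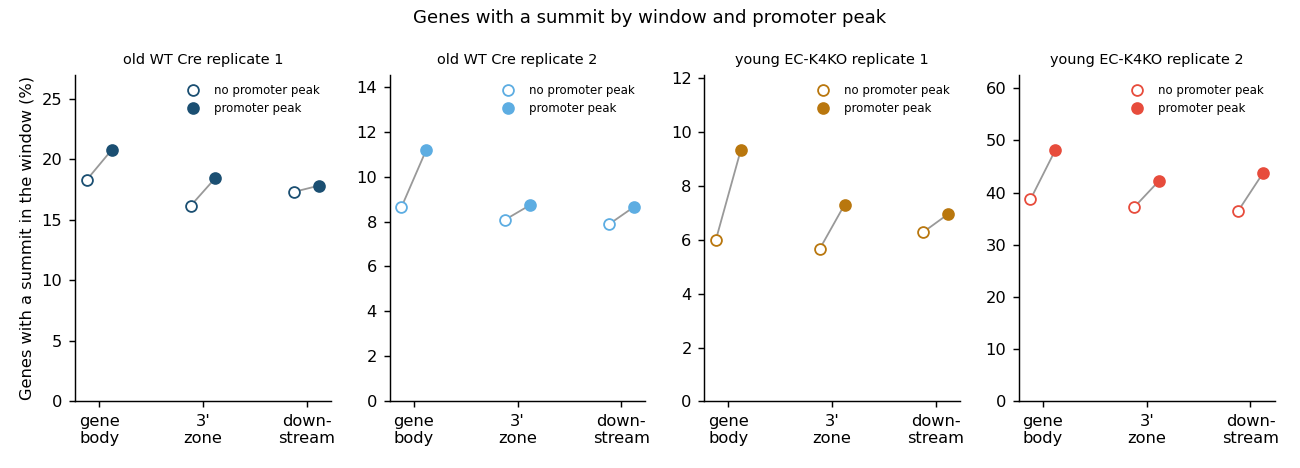
Percent of genes with a summit in the gene body window, the 3′ zone and the downstream window, with filled points for genes with a promoter peak in the same library and open points for genes without, 1 panel per library, axes from 0. Filled points are higher in every pair, and the gap is widest in the body window.

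Few genes had members in every library. Of the 9919 genes, 4714 had a member in no library, 3600 in 1, 1295 in 2, 272 in 3 and 38 in 4, so that 52.5% had one in at least 1 library, 3.13% in at least 3 and 0.383% in all 4. The counts for all 4 libraries were 40 genes in the downstream window and 64 in the body window. Both old WT Cre libraries had a member at 300 genes (3.02%), where independent lists with the same shares would give 139, and both young EC-K4KO libraries at 335 genes (3.38%), where they would give 240. The ratios to independent lists were 2.16 and 1.40 in the zone and 2.11 and 1.38 in the downstream window. Of the shared genes, 88 had no member in either young library and 199 none in either old library. These counts were 83 and 196 in the body window and 73 and 186 in the downstream window. At the level of positions, 71.7, 63.7, 63.4 and 88.3% of members overlapped no peak of another library. That share is not given for other distal peaks, which were compared with each other library singly. Per pair of libraries, 2.92 to 26.6% of members and 4.19 to 32.6% of other distal peaks were overlapped. Averaged over the pairs of each library, the mean difference was -3.56 percentage points (lower in 4 of 4 libraries, exact sign-flip permutation test, p = 0.13).

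The members found at the same place in every library were rich in repeats. A peak of each other library overlapped 18, 18, 17 and 17 members. Their windows were 67.6, 62.0, 61.2 and 60.5% repeat-masked, against 31.6, 30.9, 28.9 and 20.9% for members overlapped by no other library. As a measure of copy number, each 24-base word of a window was counted on both strands of the placed chromosomes. The median word occurred more than once in 72.2, 72.2, 70.6 and 70.6% of the windows shared by 4 libraries, and in 22.6, 24.4, 21.6 and 11.96% of those found in 1. The share was 13.9% in 6299 windows spread over the zones. Median fold enrichment was 6.25, 7.81, 5.58 and 10.01 in the members shared by 4 libraries, above the 3.76, 4.73, 4.14 and 4.60 of those found in 1. Reads from a repeat can be placed at any of its copies, and the part of such placement in these peaks was not tested.

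**Figure D5:**
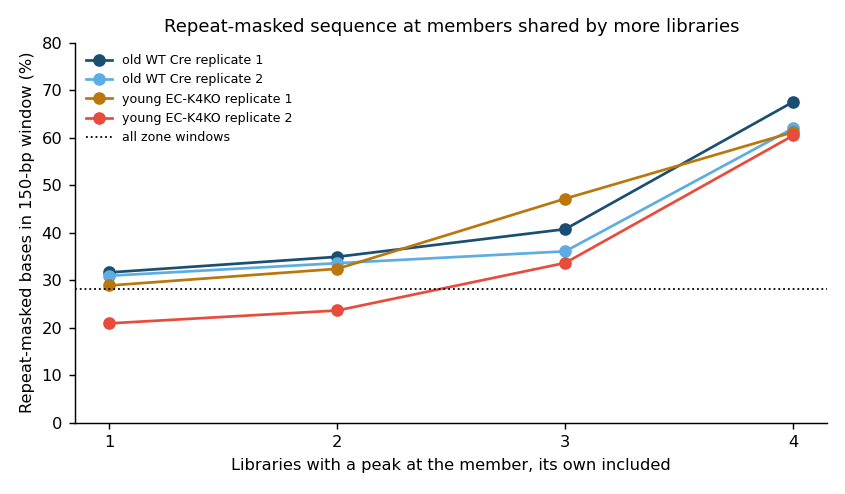
Mean percent of repeat-masked bases in 150-bp windows around members against the number of libraries with a peak there, 1 line per library. Each line ends at 60.5 to 67.6% for members shared by 4 libraries, and the dotted line marks all zone windows at 28.1%.

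Ranked by the smallest best −log10 q over the 4 libraries, the first recurrent members lay at Lars2, Mid1, Wls, Sfi1 and Man1a. The order by fold enrichment differs. At Lars2 (ENSMUSG00000035202.8), which encodes the mitochondrial leucyl-tRNA synthetase, the summit lay at -664, -665, -679 and -690 bp from the gene end, where a minus sign means before the end, in the 3′ UTR exon, with fold enrichments of 35.6, 34.4, 32.2 and 37.1. Its window held no repeat-masked base, and its median word had 3, 3, 2 and 2 copies. At Wls (ENSMUSG00000028173.10), which encodes the carrier that brings Wnt proteins to the cell surface, the summit lay 847, 863, 843 and 861 bp past the end, with fold enrichments of 26.1, 29.98, 37.8 and 24.9. Its window was fully repeat-masked, and its median word had 2267 copies in each library. At Man1a (ENSMUSG00000003746.16), which encodes a Golgi mannosidase, the summit lay 4602, 4603, 4610 and 4610 bp past the end, with fold enrichments of 15.6, 14.5, 15.3 and 23.3 and 4278 to 4743 copies. At each of these 3 genes the summits of the 4 libraries lay within 30 bp, and neither group was higher throughout.

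At Mid1 (ENSMUSG00000035299.16, chromosome X), which encodes a microtubule-bound ubiquitin ligase, summits lay at -358, -368, -4 and -343 bp from the end, with 288, 167, 261 and 589 fragments in the pileup and 8 to 32 copies of the median word. Sfi1, which encodes a centrosome protein, and Drg1, which encodes a GTP-binding protein, overlap on chromosome 11, and the Drg1 member, 1918 to 1952 bp past its end, lay in an intron of Sfi1. Pileups were 330, 200, 198 and 219 fragments at Sfi1 and 344, 125, 297 and 189 at Drg1, against member medians of 21, 13, 15 and 14. Fold enrichment was 6.07, 8.15, 4.72 and 5.44 at Sfi1 and 3.48, 3.63, 3.99 and 4.75 at Drg1, so the local background was high there too. The median word had a single copy at both, counted on placed chromosomes only. Past Rasal2, which encodes a Ras GTPase-activating protein, fold enrichment was 5.45, 10.01, 7.01 and 10.9, with 132 to 262 copies. The predicted gene Gm28539 had 13450 to 15218 copies, Gm9732 had 3 to 4 and Gm45692 had 1. Of the 38 genes, 14 had summits within 200 bp in all 4 libraries and 16 had summits spread over more than 1000 bp.

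Genes with members in both libraries of 1 group and none of the other were named by their q-values. These genes were selected for that pattern, which is therefore a description. In old WT Cre they were Rcbtb2, Cyp20a1, Trim67, Zbtb2 and Ly86. At Trim67 the summits lay 265 and 4981 bp past the end and so were not at 1 place. At Cyp20a1, which encodes an orphan cytochrome P450, the summits lay at -527 and -514 bp from the end, with fold enrichments of 8.26 and 8.20 and 20589 and 19012 copies of the median word. At Ly86, which encodes a partner of an immune receptor, they lay 862 and 877 bp past the end, with fold enrichments of 4.52 and 6.5 and fully repeat-masked windows. At Rcbtb2 they lay 2661 and 2662 bp past the end, with fold enrichments of 6.39 and 8.58 and a single copy. Its windows were 51.3 and 50.7% repeat-masked, and it had no member left outside repeat-masked sequence.

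In young EC-K4KO the named genes were Rab6a, Cemip, Atg16l1, Pdgfra and Ttc3. At Rab6a, which encodes a Golgi GTPase, the summits lay 3714 and 3715 bp past the end, in an exon of another gene, with fold enrichments of 6.51 and 10.1. At Atg16l1, an autophagy gene, they lay at -173 and -254 bp from the end, in the UTR, with fold enrichments of 5.23 and 5.998. At Pdgfra, which encodes a growth factor receptor of oligodendrocyte precursors and fibroblasts, they lay 2375 and 2439 bp past the end, with fold enrichments of 5.72 and 8.71. The windows of Rab6a, Atg16l1, Pdgfra and Ttc3 held no repeat-masked base. At Cemip and Ttc3 the strongest peaks of the pair lay apart, with summits 4048 and 3247 bp past the end at Cemip and 3502 and 3900 bp past it at Ttc3, while a weaker peak of K4KO 2 overlapped the K4KO 1 peak at both. With lists of equal length, Atg16l1 and Cemip had a member in 1 library only.

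Marker and pathway genes are counted here against 16.9, 8.29, 5.88 and 41.1% of all genes. Of 13 endothelial genes with a zone, 1, 2, 0 and 7 had a member, and of 16 barrier genes 3, 0, 1 and 6. A member was found at 1, 2, 0 and 3 of 7 mural genes, 2, 1, 1 and 3 of 6 astrocyte genes, 3, 1, 0 and 3 of 7 microglial genes, 0, 1, 1 and 1 of 5 oligodendrocyte genes, 0, 1, 0 and 5 of 8 neuronal genes and 1, 2, 0 and 5 of 8 stress and senescence genes. No list had a member at more than 3 genes outside K4KO 2, the library with the most peaks. Of 18 genes for cleavage, polyadenylation and termination, 2, 1, 0 and 10 had one, among them Cpsf2, Cstf3 and Rbbp6 in 2 libraries each, and Xrn2 in none. The median number of libraries with a member was 0.5 in the barrier list, 0 in the oligodendrocyte list and 1 in the other lists, as over all genes. Cdh5, which encodes VE-cadherin and drives the Cre used here, had members in 3 libraries, 3583 and 3599 bp past the end in the old WT Cre libraries and 1223 bp past it in K4KO 2, with fold enrichments of 4.51, 3.77 and 4.06. A weaker peak of K4KO 2 overlapped those of the old WT Cre libraries, which lay in fully repeat-masked windows. The window of the K4KO 2 summit was 72% repeat-masked, and the median word had 1 copy at each of these Cdh5 summits. Klf4, the gene deleted in EC-K4KO, spans 5.324 kb and has no zone under the rule, and no summit lay in the same window around its end in any library. The nearest summits lay at -3415, 12083, -6318 and -1094 bp from that end, so the K4KO 2 summit was just outside the window.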

How the data were processed

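The authors mapped trimmed reads to mm10 using Bowtie2 and, after removal of duplicates, called narrow peaks per library using MACS2. The headers of the deposited tables name MACS version 2.2.7.1 with a cutoff of 0.01 on q and no control. The deposited tables give each peak's pileup (a coverage signal in fragments), its fold enrichment (a ratio over local background), and its −log10 p-value and −log10 q-value. The authors did not scale these values between libraries.

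Peaks were counted with pandas 2.3.3, numpy 2.4.6 and scipy 1.17.1 under Python 3.11.15. Bases within 3000 bp of a TSS and assembly gaps were left out of every window. Uniform placement was computed per chromosome from base counts. A summit in the windows of 2 genes counted once among members and once per gene in densities. Tests were exact sign-flip permutations over 4 libraries and exact permutations of group labels. The study's methods call the replicates biological without giving the animals behind each, and p-values measure the spread between libraries. On simulated peaks, only the ratio to uniform placement was held to a limit, which was wider than the differences between windows given here. The permutation functions were checked on small examples.

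The members, windows and gene lists were chosen with earlier results of these data known. Named genes were the 10 with members in all 4 libraries ranked by the smallest best −log10 q, 5 per group with members in both of its libraries alone, listed genes in at least 3 libraries, and Klf4. Some items that these rules select are not reported here. Alternatives varied the peak thresholds (q of at most 1e-05, fold enrichment of at least 4, equal list lengths), zone, TSS distance, gene length, promoter window and chromosomes, and left out each library. The comprehensive annotation, sequence outside repeats and the stretch before the gene end were chosen after seeing the data.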

Additional observations from a re-analysis of the deposited data

How the results depend on the processing

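Of 166 recomputed values of the main results, 141 kept their direction or, for counts of genes, stayed within 1.5 times. This tally is no measure of robustness as a whole. It includes 13 values for the stretch before the gene end and 6 for coding over intron density there. All of these kept their direction, but the stretch was drawn from these data. The replicate block values equal the main ones by construction. On average the zone stayed below the body window (-0.13 to -0.0048 on the log2 scale) and the downstream window (-0.13 to -0.037), but not in every library: the 4 of 4 was lost against the body window with q of at most 1e-05, a fold enrichment of at least 4, the zone to 10000 bp, genes over 50 kb and no other gene in the zone, and against the downstream window with the last 3 of these and outside repeat-masked sequence. The mean log2 ratio to uniform placement fell from 0.23 to 0.10 over all ungapped bases. The stretch before the gene end, whose limits were drawn from these data, stayed denser than the bases past it. The excess of the zone over the downstream window by promoter peak (0.112 points) changed sign with the setting. It was 0.917 points with lists of equal length (positive in 4 of 4 libraries), 0.945 with the zone to 10000 bp, -0.49 percentage points for genes over 50 kb, -0.52 with promoter status from the other library, -0.033 with the comprehensive annotation and -0.45 to 0.89 when each library was left out. With promoter status from the other library, the group difference by promoter peak turned from -1.87 to 3.16 points, and with lists of equal length it was -0.279. Genes with members in both libraries (300 for old WT Cre, 335 for young EC-K4KO) numbered 100 and 75 at q of at most 1e-05, 139 and 74 with lists of equal length, 130 and 149 at a fold enrichment of at least 4, 707 and 779 with the zone to 10000 bp, 157 and 171 for genes over 50 kb, 159 and 147 where the peaks themselves had to overlap, and 133 and 200 outside repeat-masked sequence. With no other gene in the zone old WT Cre had 190. With 1 library left, the count is that of the other library, 822 to 1673 for old WT Cre and 583 to 4080 for young EC-K4KO. Outside repeat-masked sequence, 9 of the 23 named genes tested had no member left. Over 5000 bp from every TSS, 5 had none left (Mid1, Drg1, Gm45692, Rcbtb2 and Ly86), and with the comprehensive annotation 1 (Drg1). With the replicate number as a block (replicate block), the group differences keep their values of 0.23 and -1.87, with exact permutation p of 0.5 and 1.0, where 0.5 is the smallest p possible; with 2 pairs the numbers were not taken to pair the samples. The cause of these changes was not tested. Counting error weighs most on K4KO 1, which had the fewest members (576).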
